A study of Homo sapiens with 12 samples.

Results

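Prostaglandin synthesis and breakdown was followed in HT29 cells, an established line from a human colon adenocarcinoma, through 7 of the 18377 genes tested. The genes are PLA2G4A, PTGS1, PTGS2, PTGES, HPGD, PTGER2 and PTGER4, and each was read by 1 probe set of a human gene array. They have a place in the pathway, and the set was chosen with earlier results of these data known. Its share of calls is therefore description only. HT29 cells grown in F12 medium with fetal bovine serum received 70 nM methotrexate, an antifolate that inhibits dihydrofolate reductase, for 8, 24 or 48 h, and a control group was untreated. Each of the 4 groups held 3 arrays, 12 in all, and the titles call the 3 replicates biological. All groups share a single cell line with no genotype difference between them. The titles of the control arrays give no time, and a single control group served 8, 24 and 48 h. Treatment and time in culture therefore cannot be told apart.

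Prostaglandins are made when a phospholipase A2 frees arachidonic acid from membrane lipids, a cyclooxygenase turns it into prostaglandin H2, and a terminal synthase makes the final product, such as prostaglandin E2 (PGE2). PGE2 acts on cell surface receptors, some of which raise cyclic AMP, and is inactivated inside cells by 15-hydroxyprostaglandin dehydrogenase. In the colon the pathway is known for high PTGS2 and low HPGD in many tumours, and for the drugs of the aspirin class that inhibit the cyclooxygenases.

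The deposited values are log2 ratios to the control median of each probe set, so only differences between groups were measured and no level of a gene can be set against that of another. For the same reason the levels of epithelial markers could not be checked, and the labelled cell type was not tested against them. Of 23 fibroblast, leukocyte and endothelial markers, 0 passed limma's test in any of the 6 comparisons, beside 10.1% to 29.7% of all genes. At an unadjusted p under 0.05 there were 0 to 2 of them per comparison. Without levels, these counts do not show whether such cells were absent. Array replicate 3 at 48 h stood apart from the other 48 h arrays. Its root mean square difference from them over all genes was 0.208 and 0.184, against 0.094 to 0.143 for every other pair of replicates. Differences of the 7 genes at 48 h are therefore also given without that array. For other genes at 48 h, some counts of calls are given without it, and not single differences. In bulk RNA, fewer cells that express a gene and less RNA per cell cannot be told apart.

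Promoters of 3 genes, PTGS2, PTGES and PLA2G4A, are printed because these genes had the smallest p-values over the time course. Each runs from 250 bases before to 50 bases after the gene start, 5′ to 3′ along the gene's own strand, in the build GRCh38.p14 and as given by RefSeq. The PTGS2 window is chr1:186680374-186680673 on the minus strand, the PTGES window is chr9:129752993-129753292 on the minus strand, and the PLA2G4A window is chr1:186828699-186828998 on the plus strand. Capitals mark matches on either strand to 6 motifs. They were the TATA box TATAAA, the GC box GGGCGG, the CCAAT box itself, the E-box CACGTG, the cyclic AMP response element core TGACG and the AP-1 site TGANTCA, and no matches overlapped in the printed windows.
PTGS2: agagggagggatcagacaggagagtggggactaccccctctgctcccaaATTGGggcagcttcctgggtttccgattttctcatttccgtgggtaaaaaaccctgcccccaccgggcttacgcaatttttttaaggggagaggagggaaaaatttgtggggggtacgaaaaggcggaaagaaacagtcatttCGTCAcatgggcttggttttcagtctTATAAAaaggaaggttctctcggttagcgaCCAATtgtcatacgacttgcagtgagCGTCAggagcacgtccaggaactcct
PTGES: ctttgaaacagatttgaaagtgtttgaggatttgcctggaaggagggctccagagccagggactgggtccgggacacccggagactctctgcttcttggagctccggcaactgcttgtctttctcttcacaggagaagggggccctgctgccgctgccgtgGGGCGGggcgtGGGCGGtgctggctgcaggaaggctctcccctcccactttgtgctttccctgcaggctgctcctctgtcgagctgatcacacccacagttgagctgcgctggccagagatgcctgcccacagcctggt
PLA2G4A: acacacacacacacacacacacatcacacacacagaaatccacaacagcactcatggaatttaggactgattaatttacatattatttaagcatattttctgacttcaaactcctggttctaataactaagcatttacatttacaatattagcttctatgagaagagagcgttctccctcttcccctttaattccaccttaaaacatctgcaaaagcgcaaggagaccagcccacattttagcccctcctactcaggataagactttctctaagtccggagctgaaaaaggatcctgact
The PTGS2 window held TATAAA at position -32 from the gene start, CCAAT at -201 and -2, and TGACG at -58 and 25. The CCAAT at -201 and both copies of TGACG lay on the opposite strand. In the PTGES window the 2 matches were GGGCGG at -89 and -78. None of the 6 motifs matched in the PLA2G4A window, which says only that these letters are not in those 300 bases. Of 35116 promoter windows in the RefSeq table, 11.5% held TATAAA, 34.6% CCAAT, 24.6% TGACG, 45% GGGCGG, 7.26% CACGTG and 7.71% the AP-1 site. PTGS2 and PLA2G4A are neighbours, since PLA2G4A is the next protein-coding gene after PTGS2 along chromosome 1 in the RefSeq gene table of that build.

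By the moderated F test of limma over the 4 groups, 5 of the 7 genes passed at an adjusted p under 0.05, as did 38.8% of all genes. These were PTGS2, PTGES, PLA2G4A, PTGS1 and HPGD, and the 2 receptors did not pass. The called genes had different time courses. PTGS2 was at about the same reduced value at every time with methotrexate, PTGES was higher with each interval after 8 h, and PLA2G4A was higher at 8 h and lower at 48 h. Against control, 4 genes passed at 8 h, 2 higher and 2 lower, beside 24.2% of all genes (12.1% higher and 12.0% lower). At 24 h 3 passed, 2 higher and 1 lower, beside 16.7% of all genes (8.69% higher and 8.02% lower). At 48 h 3 passed, 1 higher and 2 lower, beside 25.3% of all genes (13.0% higher and 12.3% lower). The median difference of the 7 genes from control was 0.09 at 8 h, 0.10 at 24 h and 0.06 at 48 h on the log2 scale, and that of all genes was 0.02, 0.02 and 0.01. The same 3 control arrays stand in all 3 of these comparisons.

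**Figure D1:**
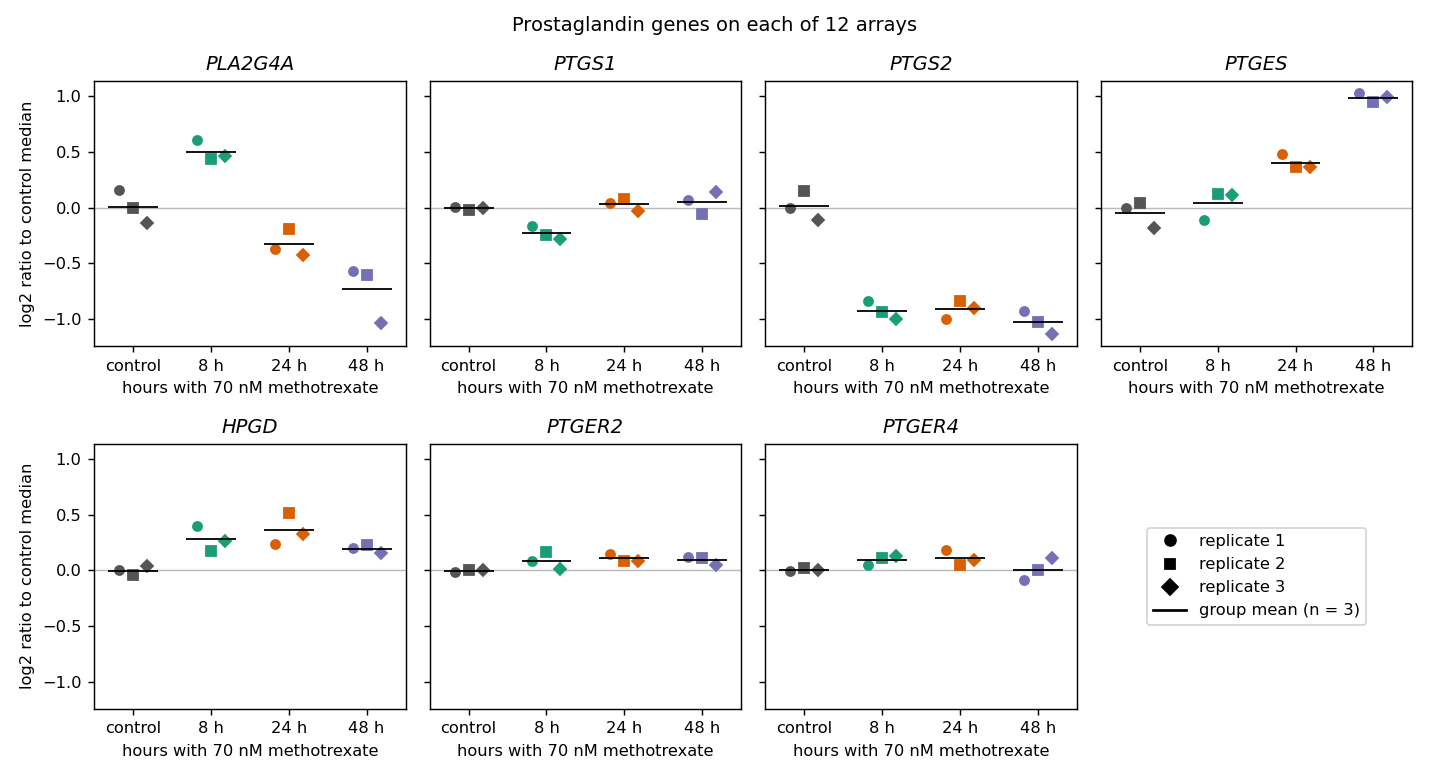
Log2 ratio to the control median (vertical axis) of each of the 7 genes on each of the 12 arrays, by group (horizontal axis: control, then 8, 24 and 48 h with 70 nM methotrexate). Points are arrays, with a symbol per replicate, and lines are means of 3 arrays; all 9 methotrexate arrays of PTGS2 lie between -0.83 and -1.14, below the control arrays, and those of PTGES at 48 h lie between 0.95 and 1.03.

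PLA2G4A encodes cytosolic phospholipase A2 alpha, which frees arachidonic acid and so supplies the cyclooxygenases. Its log2 ratios were 0.16, 0.00 and -0.14 on the control arrays, 0.61, 0.43 and 0.46 at 8 h, -0.37, -0.19 and -0.43 at 24 h, and -0.57, -0.60 and -1.03 at 48 h. All arrays of 8 h lay above all of the control and all of 24 and 48 h below it, so that the order of the groups was 8 h, control, 24 h and 48 h from high to low.

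PLA2G4A rose at 8 h, with a mean of 0.50 ± 0.09 at 8 h and 0.01 ± 0.15 in control (SD, n = 3 each), a difference of 0.49 (95% interval 0.24 to 0.74) or 1.41-fold at a limma adjusted p of 0.00653. At 48 h it fell to a mean of -0.73 ± 0.26, against the same control, a difference of -0.74 (95% interval -0.99 to -0.49) or 1.67-fold lower at an adjusted p of 0.00035. At 24 h the mean was -0.33 ± 0.12 and the difference from control -0.34 (95% interval -0.59 to -0.09), which did not pass at an adjusted p of 0.0653. That miss depends on the arrays used: the difference passed without control replicate 3 (0.0485), without 24 h replicate 2 (0.0463) and without 48 h replicate 3 (0.00813).

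Between the treated groups, PLA2G4A was lower at 24 h than at 8 h by a log2 difference of -0.83, or 1.78-fold, at an adjusted p of 0.000229. The widest gap was between 48 and 8 h, a difference of -1.24 or 2.35-fold at an adjusted p of 3.53e-06, and 20 of all genes, or 0.109%, had a larger negative difference there. Of the 7 genes, 2 were higher and 1 lower at 24 h against 8 h, beside 19.4% of all genes called (9.99% higher and 9.40% lower). At 48 h against 8 h 2 were higher and 1 lower, beside 29.7% of all genes called (15.3% higher and 14.4% lower). The difference of 48 h against 24 h was -0.41 at an adjusted p of 0.0411. In that comparison 2 of the 7 genes passed, 1 in each direction, beside 10.1% of all genes (5.26% higher and 4.86% lower).

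The lowest PLA2G4A array was 48 h replicate 3, the array that stood apart. Without it the difference from control at 48 h was -0.59 at an adjusted p of 0.000269 and the difference from 8 h was -1.09 at 1.12e-06. The difference from 24 h was then -0.26 and no longer passed (adjusted p 0.0827). That last call was lost in 7 of the 12 fits that left out 1 array, which were those without control replicate 2, 8 h replicate 2 or 3, any of the 3 arrays of 24 h, or 48 h replicate 3, with adjusted p-values up to 0.134.

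PTGS1 encodes cyclooxygenase 1, the form that many tissues make at all times. Its log2 ratios were 0.01, -0.02 and 0.00 in control, -0.16, -0.24 and -0.28 at 8 h, 0.04, 0.08 and -0.03 at 24 h, and 0.07, -0.06 and 0.14 at 48 h. The 3 arrays of 8 h lay below the arrays of every other group, which overlapped one another.

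PTGS1 fell at 8 h by 0.22 on the log2 scale (95% interval -0.35 to -0.10), or 1.17-fold, at an adjusted p of 0.0113. Without 8 h replicate 3 that difference was not called (adjusted p 0.0524). It was higher at 24 h than at 8 h by 0.26 (adjusted p 0.00567) and higher at 48 h than at 8 h by 0.28 (adjusted p 0.00194), or by 0.24 (0.00639) without 48 h replicate 3. At 24 and 48 h it did not pass against control, with differences of 0.04 (95% interval -0.09 to 0.16) and 0.06 (95% interval -0.07 to 0.18). Without 48 h replicate 3 the 48 h difference of PTGS1 was 0.01 from control (0.934) and -0.02 from 24 h (0.838), beside 0.02 (0.909) with it.

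PTGS2 encodes cyclooxygenase 2, the inducible form, which growth factors and inflammatory signals are known to raise. Its log2 ratios were 0.00, 0.15 and -0.11 in control, -0.84, -0.94 and -1.0 at 8 h, -1.0, -0.83 and -0.90 at 24 h, and -0.93, -1.03 and -1.14 at 48 h. Every array with methotrexate lay below every control array, and the 3 treated groups overlapped one another.

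PTGS2 fell at all 3 times. The mean was -0.93 ± 0.08 at 8 h, -0.91 ± 0.09 at 24 h and -1.03 ± 0.10 at 48 h, each against 0.01 ± 0.13 in control (SD, n = 3 each). The difference was -0.94 (95% interval -1.10 to -0.77) or 1.92-fold lower at 8 h, with an adjusted p of 2.18e-06. It was -0.92 (95% interval -1.09 to -0.76) or 1.90-fold lower at 24 h, with an adjusted p of 3.28e-06. At 48 h it was -1.04 (95% interval -1.21 to -0.88) or 2.06-fold lower, with an adjusted p of 6.62e-07, and -0.99 (adjusted p 1.45e-06) without 48 h replicate 3. Few genes fell further, 122 of all genes at 8 h (0.664%), 95 at 24 h (0.517%) and 79 at 48 h (0.43%).

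Among the treated groups no change of PTGS2 was called. Its difference was 0.01 between 24 and 8 h (95% interval -0.15 to 0.18), -0.12 between 48 and 24 h (95% interval -0.28 to 0.05) and -0.10 between 48 and 8 h (95% interval -0.27 to 0.06). The last 2 were -0.06 and -0.05 without 48 h replicate 3 (adjusted p 0.668 and 0.678). The intervals leave room for a further difference of up to 0.28 on the log2 scale.

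PTGES encodes microsomal prostaglandin E synthase 1, which turns prostaglandin H2 into PGE2 and is known to work beside cyclooxygenase 2. Its log2 ratios were 0.00, 0.04 and -0.19 in control, -0.11, 0.12 and 0.11 at 8 h, 0.48, 0.36 and 0.36 at 24 h, and 1.03, 0.95 and 0.99 at 48 h. The arrays of 8 h overlapped the control, those of 24 h lay above both, and those of 48 h lay above all others, so the order of the groups was the order of time.

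PTGES rose at 24 h, with a mean of 0.40 ± 0.07 at 24 h and -0.05 ± 0.12 in control (SD, n = 3 each). That difference was 0.45 (95% interval 0.29 to 0.61) or 1.37-fold, at an adjusted p of 0.000953. At 48 h the mean was 0.99 ± 0.04, a difference from control of 1.04 (95% interval 0.88 to 1.20) or 2.05-fold at an adjusted p of 5.33e-07, and 64 genes, or 0.348%, rose further. Without 48 h replicate 3 the difference was again 1.04 (adjusted p 1.44e-06). At 8 h the difference of 0.09 (95% interval -0.07 to 0.25) was not called.

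Each later step of PTGES was called as well. It was higher at 24 h than at 8 h by 0.36, or 1.29-fold (adjusted p 0.00363), and higher at 48 h than at 24 h by 0.59 (adjusted p 0.000334). Between 48 and 8 h the difference was 0.95, or 1.93-fold, at an adjusted p of 8.36e-07. PTGES was also higher at 48 h without 48 h replicate 3, by 0.58 than at 24 h (0.000774) and by 0.95 than at 8 h (2.28e-06).

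PTGS2 and PTGES, consecutive steps on the way to PGE2, therefore moved in opposite directions at 24 and 48 h: PTGS2 was lower and PTGES higher than control at both times.

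**Figure D2:**
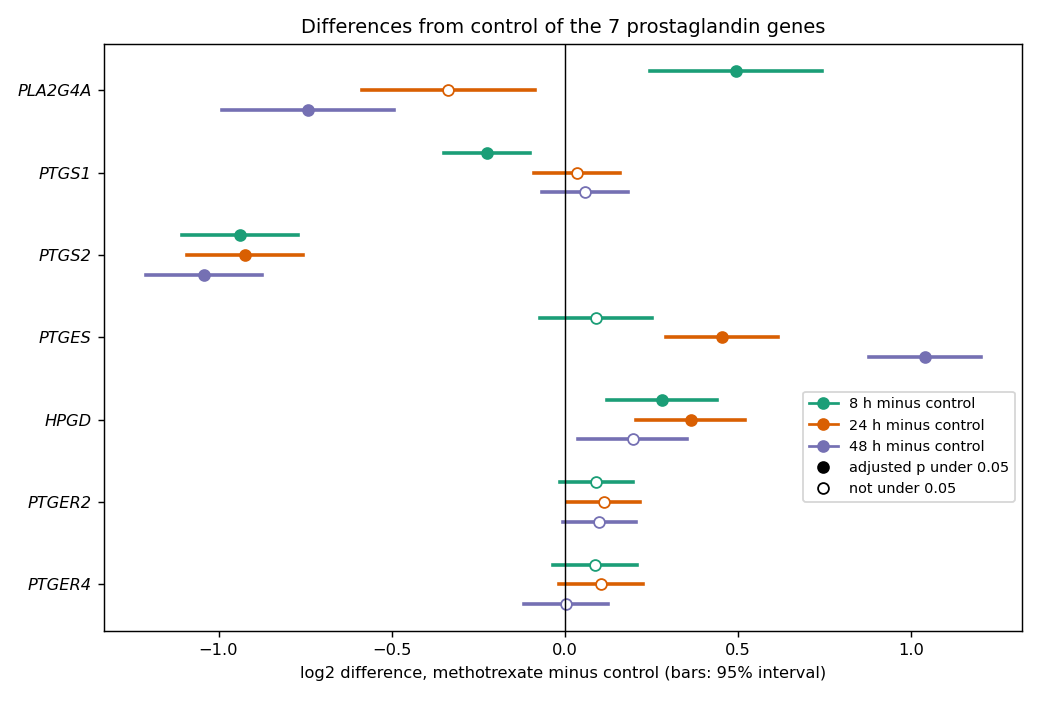
Log2 difference, methotrexate minus control (horizontal axis), of each of the 7 genes (vertical axis) at 8, 24 and 48 h, with 95% intervals from limma as bars; filled points have an adjusted p under 0.05. The intervals of PTGS2 lie below 0 at all 3 times, PTGES has filled points at 24 and 48 h, and the filled points of PLA2G4A lie on opposite sides of 0 at 8 and 48 h.

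HPGD encodes 15-hydroxyprostaglandin dehydrogenase, which starts the breakdown of PGE2. Its log2 ratios were 0.00, -0.05 and 0.04 in control, 0.40, 0.17 and 0.26 at 8 h, 0.24, 0.52 and 0.33 at 24 h, and 0.20, 0.22 and 0.16 at 48 h. All 9 arrays with methotrexate lay above the 3 control arrays, and the arrays of 8 h overlapped those of both later times.

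HPGD rose at 8 h by a difference of 0.28 (95% interval 0.12 to 0.44) or 1.21-fold at an adjusted p of 0.0128, a call that did not hold without control replicate 2 (0.0548) or without 8 h replicate 1 (0.0579). At 24 h it rose by a difference of 0.36 (95% interval 0.20 to 0.52) or 1.29-fold at an adjusted p of 0.00398. At 48 h the difference was 0.19 (95% interval 0.04 to 0.35) at an adjusted p of 0.0707, which did not pass, and 0.21 (0.0775) without 48 h replicate 3. The 48 h difference passed without 24 h replicate 2, at an adjusted p of 0.0336. No difference between the treated times was called for HPGD. The adjusted p was 0.57 for 24 against 8 h, 0.197 for 48 against 24 h and 0.474 for 48 against 8 h, the last 2 being 0.284 and 0.59 without 48 h replicate 3.

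PTGER2 and PTGER4 encode the PGE2 receptors EP2 and EP4, which act through cyclic AMP. The PTGER2 ratios were -0.02, 0.00 and 0.00 in control, 0.08, 0.16 and 0.01 at 8 h, 0.15, 0.09 and 0.09 at 24 h, and 0.12, 0.11 and 0.05 at 48 h. The arrays with methotrexate lay above the control arrays, 8 h replicate 3 and control replicate 2 being closest.

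For PTGER2 the difference from control was 0.09 at 8 h (95% interval -0.02 to 0.20), 0.11 at 24 h (0.01 to 0.22) and 0.10 at 48 h (-0.01 to 0.20), and the adjusted p-values of 0.235, 0.152 and 0.178 did not pass. Without 48 h replicate 3 the 48 h difference was 0.12 (adjusted p 0.13). PTGER4 had ratios of -0.01, 0.03 and 0.00 in control, 0.05, 0.11 and 0.13 at 8 h, 0.18, 0.05 and 0.09 at 24 h, and -0.09, 0.00 and 0.11 at 48 h. At 8 and 24 h its arrays lay above the control arrays, and at 48 h they lay on both sides of them.

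The differences of PTGER4 from control were 0.09 (95% interval -0.03 to 0.21), 0.10 (-0.02 to 0.23) and 0.00 (-0.12 to 0.12) at 8, 24 and 48 h, with adjusted p-values of 0.335, 0.266 and 0.99. Without 48 h replicate 3 the 48 h difference was -0.05 (adjusted p 0.631). With 3 arrays a group, the intervals of the 2 receptors hold differences of up to 0.23 on the log2 scale, so changes within them are not excluded. No change of either receptor was called between the treated times, with or without 48 h replicate 3. Treated and control arrays did not overlap for 6 of the 7 genes at 8 h, 6 at 24 h and 5 at 48 h, beside 37.9%, 33.0% and 35.7% of all genes. Between the treated times 3 of the 7 genes had groups that did not overlap in each comparison, beside 33.3% of all genes for 24 against 8 h, 24.0% for 48 against 24 h and 37.8% for 48 against 8 h.

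Genes around the pathway were counted in 5 lists, to be read beside the 24.2% of all genes called at 8 h, 16.7% at 24 h and 25.3% at 48 h. Up to 3 called genes per list, those with the smallest adjusted p, were picked at each time. Of the 14 results picked at 48 h, 14 were also called without 48 h replicate 3. Other 48 h differences printed below, those of ACSL1, MGLL, VEGFA and PTGES3 among them, are not given without it. The list of phospholipases A2 and enzymes that handle arachidonate had 33 of its 37 genes measured. Against control 2 were higher and 3 lower at 8 h, 4 higher and 1 lower at 24 h, and 9 higher and 1 lower at 48 h, with median differences of 0.00, 0.07 and 0.10 on the log2 scale. Its shares called were 15.2% at 8 h and 24 h, below those of all genes, and 30.3% at 48 h. Without 48 h replicate 3, 10 were higher and 2 lower at 48 h. DAGLB is a diacylglycerol lipase that makes the endocannabinoid 2-arachidonoylglycerol. It rose by 0.46 at 8 h (adjusted p 2e-04) and was higher than control by 0.37 at 48 h (0.000997). ACSL1, which links long-chain fatty acids to coenzyme A, fell by 0.55 at 8 h (0.000559), and MGLL, which splits monoacylglycerols, fell by 0.27 (0.00882). At 48 h both were higher than control, ACSL1 by 0.27 (0.0384) and MGLL by 0.32 (0.00304).

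Later members of that list differed. LPCAT3, which puts polyunsaturated fatty acids such as arachidonate into membrane phospholipids, fell by 0.27 at 24 h (adjusted p 0.00183) and by 0.37 at 48 h (9.22e-05). PLA2G4C, another cytosolic phospholipase A2, rose by 0.42 at 48 h (2.83e-05), the time at which PLA2G4A was lower than control. PLA2G15, a lysosomal phospholipase A2, rose by 0.33 at 48 h (0.00011). Its rise of 0.18 at 24 h (0.0134) was lost without 24 h replicate 1 or 3 (0.0557 and 0.0524), and that of DAGLB at 24 h, 0.26 (0.0157), without control replicate 3 or 24 h replicate 3 (0.0649 and 0.0724). Without 24 h replicate 3, 0 genes of this list were called higher at 24 h.

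In the list of prostanoid synthases, transporters and breakdown enzymes, 18 of 21 genes were measured. Against control 5 were higher and 2 lower at 8 h, 5 higher and 1 lower at 24 h, and 1 higher and 5 lower at 48 h, with medians of 0.07, 0.06 and -0.01. Its shares called were 38.9%, 33.3% and 33.3%, above those of all genes. The genes called higher at 8 and 24 h included the paralogs AKR1C1, AKR1C2 and AKR1C3. Their probes may read one another, so these calls may not be separate. With the replicate number as a block 2 genes were higher at 48 h in place of 1, and without 48 h replicate 3, 2 were higher and 4 lower. CBR1 is a carbonyl reductase that can turn PGE2 into prostaglandin F2 alpha. It rose by 0.36 at 8 h (adjusted p 0.000252), by 0.18 at 24 h (0.032) and by 0.27 at 48 h (0.00196). TBXAS1, thromboxane synthase, fell by 0.38 at 8 h (0.000352) and was lower than control by 0.22 at 48 h (0.012). ABCC4 is a transporter that exports prostaglandins and also methotrexate. It fell by 0.28 at 8 h (0.0484), by 0.59 at 24 h (0.000876) and by 0.66 at 48 h (0.000205).

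The 3 aldo-keto reductases AKR1C1, AKR1C2 and AKR1C3, which act on prostaglandins and steroids, lie in that list. AKR1C2 had values of 1.13, 1.38 and 1.30 at 8 h, against 0.12, 0.00 and -0.05 in control, and rose 2.38-fold (adjusted p 8.59e-07). It rose by 0.82 at 24 h (4.61e-05) and its difference of -0.21 at 48 h did not pass (0.133). AKR1C1 rose by 0.30 at 8 h (0.0111) and 0.48 at 24 h (0.000771). AKR1C3, which makes prostaglandin F2 alpha, rose by 0.54 at 8 h (0.000913) and 0.46 at 24 h (0.00426). At 48 h it fell by 0.36 (0.0112), a call lost without control replicate 1 (0.0575). These paralogs are similar in sequence, so probes may read more than 1 of them. The other PGE synthases, named here after their values were seen, did not move as PTGES did. PTGES3, a cytosolic form and HSP90 partner, had a difference of 0.25 at 8 h (0.0158), 0.05 at 24 h (0.716) and -0.25 at 48 h (0.0164), and PTGES2 had 0.18 (0.148), 0.10 (0.499) and -0.05 (0.771).

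Among other prostanoid receptors and their signal partners, 32 of 33 genes were measured, with 2 higher and 2 lower at 8 h, the same numbers at 24 h, and 4 higher and 2 lower at 48 h. The medians were 0.04, 0.01 and 0.00, and the shares called, 12.5%, 12.5% and 18.8%, were below those of all genes. The 48 h counts were equal without 48 h replicate 3. ARRB1, an arrestin that binds active receptors, had values of 0.79, 0.78 and 0.77 at 48 h, against 0.01, 0.00 and -0.12 in control. It rose by 0.36 at 24 h (adjusted p 0.000208) and by 0.81 at 48 h (1.15e-07), and had a difference of 0.02 at 8 h (0.863). PPARD, a nuclear receptor, rose by 0.43 at 24 h (0.000308) and 0.48 at 48 h (6.88e-05).

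On the cyclic AMP side of that list, ADCY3, an adenylyl cyclase, rose by 0.42 at 8 h (adjusted p 0.00101). ADCY5, another, fell by 0.35 at 8 h (0.00276) and by 0.33 at 24 h (0.00587). Of the subunits of protein kinase A, the regulatory PRKAR2A rose by 0.29 at 8 h (0.00356) and the catalytic PRKACB fell by 0.62 at 48 h (2.25e-05). Genes of the cyclic AMP pathway therefore moved in both directions.

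The leukotriene and lipoxygenase list had 14 of 19 genes measured, and against control 0 were higher and 1 lower at 8 h, 3 higher and 0 lower at 24 h, and 2 higher and 0 lower at 48 h, with medians of 0.01, 0.01 and 0.03. The shares called were 7.14%, 21.4% and 14.3%, below those of all genes at 8 and 48 h, and the 48 h counts were equal without 48 h replicate 3. CYP2J2, an epoxygenase of arachidonate, fell by 0.31 at 8 h (adjusted p 0.00905). LTA4H, the hydrolase that makes leukotriene B4, rose by 0.36 at 24 h (5.85e-05) and 0.28 at 48 h (0.000246). ALOX5, which starts leukotriene synthesis, rose by 0.38 at 24 h (6.21e-05), with values of 0.41, 0.38 and 0.42 against 0.06, 0.00 and 0.00 in control. ALOX15 rose by 0.30 at 48 h (0.00502), and the rise of ALOX15B at 24 h, 0.24 (0.038), was lost in 6 of the 12 fits that left out 1 array, at adjusted p-values up to 0.153. Those were the fits without control replicate 1 or 2, 8 h replicate 2, 24 h replicate 1 or 3, or 48 h replicate 2.

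**Figure D3:**
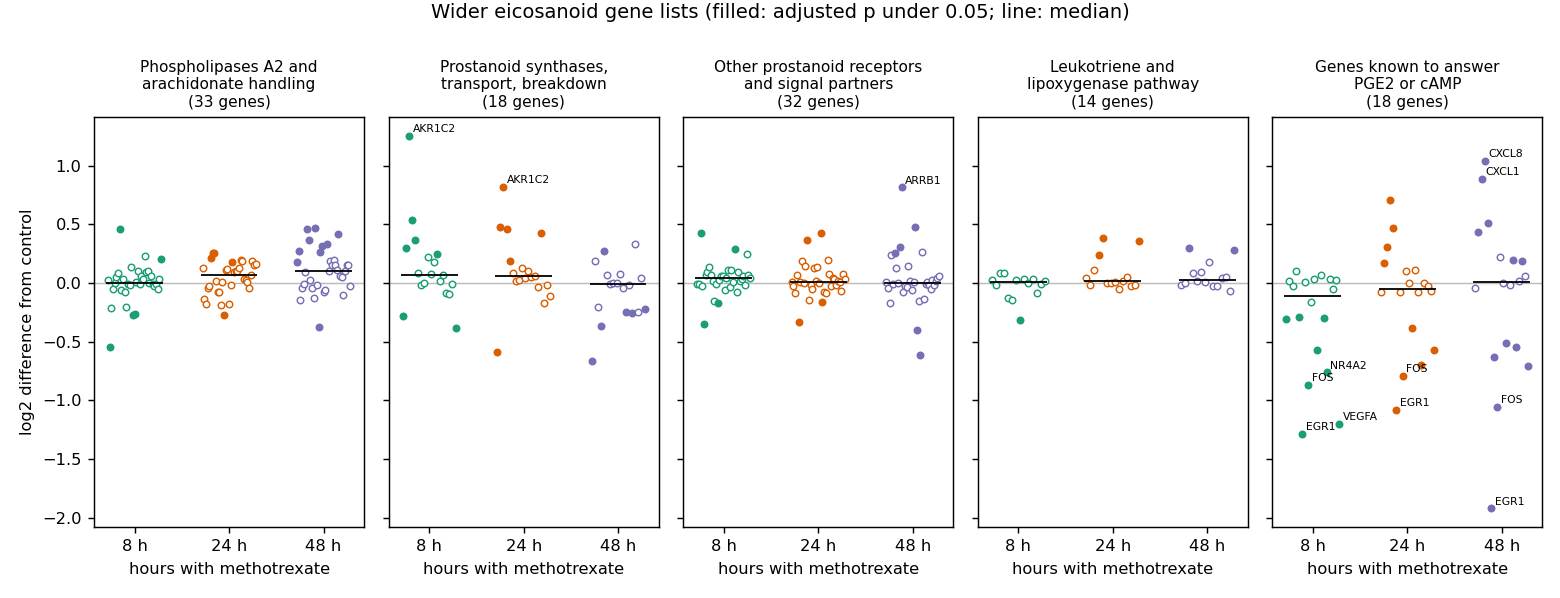
Log2 difference from control (vertical axis) of every measured gene of 5 lists at 8, 24 and 48 h with methotrexate (horizontal axis); filled points have an adjusted p under 0.05 and lines are list medians. AKR1C2 stands highest at 8 h with 1.25 and EGR1 lowest at 48 h with -1.92.

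The last list holds genes known to answer PGE2 or cyclic AMP in epithelial cells, of which 18 of 20 were measured. Against control 0 were higher and 8 lower at 8 h, 4 higher and 5 lower at 24 h, and 6 higher and 6 lower at 48 h, with medians of -0.11, -0.05 and 0.01. At 8 h 12.0% of all genes were called lower. The list's shares called were 44.4%, 50% and 66.7%, and without 48 h replicate 3, 4 were higher and 6 lower at 48 h. Like the other lists, it was drawn up with earlier results of these data known, so these shares are description only. These genes also answer many other signals, growth factors among them. EGR1, an immediate early transcription factor, had values of -1.91, -1.99 and -1.81 at 48 h, against 0.00, -0.09 and 0.13 in control.

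EGR1 fell by 1.29 at 8 h (adjusted p 5.18e-08), by 1.08 at 24 h (3.37e-07) and by 1.92 at 48 h (1.53e-09), the last a 3.78-fold decrease. FOS, another early factor, fell by 0.87, 0.79 and 1.06 at the 3 times (adjusted p 1.78e-07, 5.86e-07 and 2.5e-08). VEGFA, which drives vessel growth, fell by 1.20 at 8 h (1.41e-08), by 0.57 at 24 h (1.19e-05) and by 0.71 at 48 h (9.07e-07). CXCL1, a chemokine for neutrophils, went the other way and rose by 0.31 at 24 h (0.00186) and by 0.89 at 48 h (1.73e-07). The list thus held genes lower at all times, as PTGS2 was, and genes higher at 48 h, as PTGES was.

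The genes whose values were most like those of PTGS2, PTGES and PLA2G4A were found by Pearson correlation over the 12 arrays. All points share the same 4 groups, so these correlations carry no test. They mix similar group means with deviations of single arrays, those of 48 h replicate 3 included. They are not given without that array. For PTGS2 they were SPRY4 (r = 0.985), CBLB (0.985) and ADAMTS6 (0.984). SPRY4, an inhibitor of receptor tyrosine kinase signals, had differences from control of -1.03 at 8 h, -1.18 at 24 h and -1.26 at 48 h. CBLB, a ubiquitin ligase, had -1.05, -1.02 and -1.03, and ADAMTS6, a secreted protease, had -1.14, -1.14 and -1.22.

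For PTGES the most similar genes were ARRB1 (r = 0.987), ENO2 (0.984) and SLC7A7 (0.982). ENO2, an enolase of glycolysis, had differences from control of 0.08 at 8 h, 0.53 at 24 h and 1.08 at 48 h, and SLC7A7, part of an amino acid transporter, had 0.06, 0.62 and 1.22. For PLA2G4A they were OTUD6B (0.994), NDUFAB1 (0.994) and MAK16 (0.992). OTUD6B, a deubiquitinase, had differences of 0.38, -0.28 and -0.59 at the 3 times. NDUFAB1, the mitochondrial acyl carrier protein, had 0.23, -0.21 and -0.45, and MAK16, a ribosome assembly factor, had 0.46, -0.17 and -0.50.

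**Figure D4:**
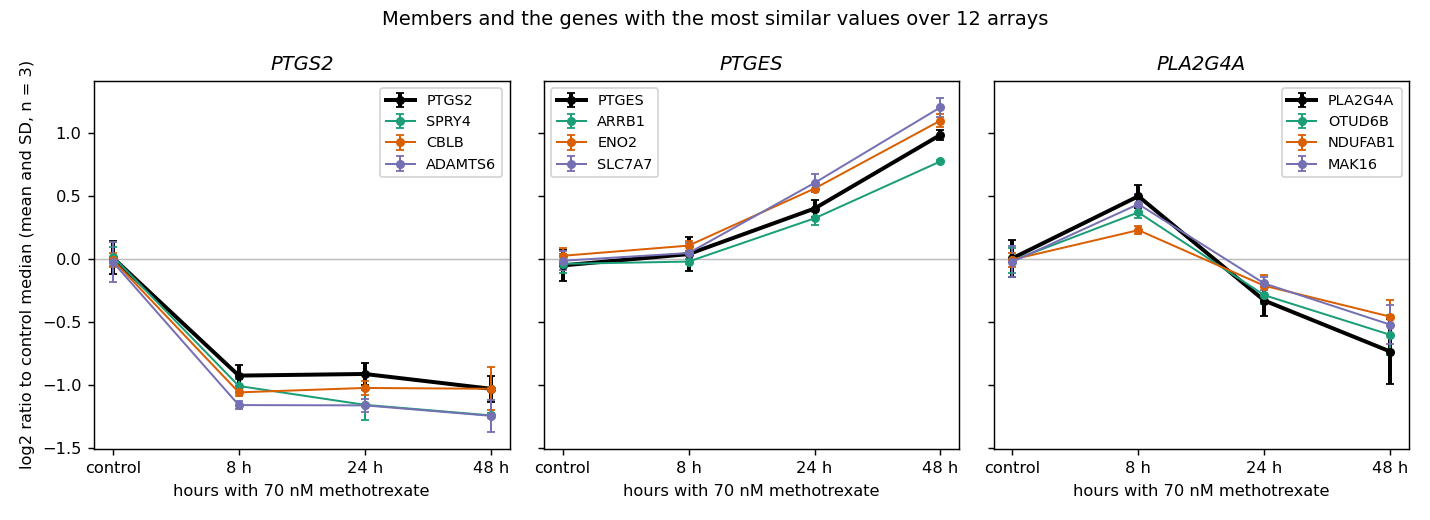
Mean log2 ratio to the control median (vertical axis, bars are SD over 3 arrays) by group (horizontal axis: control, then 8, 24 and 48 h with 70 nM methotrexate) for PTGS2, PTGES and PLA2G4A, each with the 3 genes of highest correlation over the 12 arrays. PTGS2 reaches its reduced value by 8 h, PTGES is highest at 48 h with a mean of 0.99, and PLA2G4A is above 0 at 8 h with 0.50 and below it at 48 h with -0.73.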

How the data were processed

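RNA of 12 HT29 cultures was measured on Affymetrix human gene arrays. The deposited log2 values were made with RMA and the build hg19 per the submitters' processing notes, which give no version of either. In all 28869 probe sets the median of the 3 control arrays was 0, and the values are therefore read as ratios to it. The sources used here do not state this centring, and base 2 was taken from RMA. Signal over background, and with it a depth for each value, is unknown, and the number of arrays limits the precision.

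The 19310 probe sets with 1 gene symbol in the platform annotation gave 18377 genes, of which 685 were means of several probe sets. limma 3.58.1 (R 4.3.3) fitted all 12 arrays with a mean per group (8 residual and 4.71 prior degrees of freedom), two-sided, with Benjamini-Hochberg adjustment over all genes in each of 6 comparisons and a threshold of 0.05. The median SE of a difference was 0.07. P-values set a difference between groups against the spread between replicate arrays of this cell line, pooled over the 4 groups and moderated by limma. The fit was tested on simulated data. Figures used Python 3.11.15 and matplotlib 3.10.9.

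All 7 genes are named in every comparison. From each wider list the 3 called genes with the smallest adjusted p per comparison with control are named, and for each of the 3 genes with the smallest F test p the 3 most similar genes, leaving out small RNAs, microRNAs, uncharacterised loci and pseudogenes. The genes and lists were chosen with earlier results of these data known. Replicate numbers were checked for pairing: the 18 correlations of same-numbered deviations ran from -0.452 to 0.472 and 11 were over 0.1. All 3 were over 0.1 for 48 h and control alone, whose member calls did not change with the block. Promoters came from RefSeq (GRCh38.p14), and all 7 genes matched.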

Additional observations from a re-analysis of the deposited data

Results flagged for a closer look

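PLA2G4A, PTGS1 and PTGES differed between times with methotrexate by a direct limma test of those times, in 8 comparisons in all. For PLA2G4A the log2 difference was -0.83 for 24 h against 8 h, -0.41 for 48 h against 24 h and -1.24 for 48 h against 8 h. The value for 48 h against 24 h was -0.26 without 48 h replicate 3, and its call was lost in 7 of the 12 fits without 1 array. PTGS1 differed by 0.26 for 24 h against 8 h and by 0.28 for 48 h against 8 h. PTGES differed by 0.36 for 24 h against 8 h, 0.59 for 48 h against 24 h and 0.95 for 48 h against 8 h. With 3 arrays in a group, single arrays that stand out within a group were not tested gene by gene.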

How the results depend on the processing

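Of 42 results of the 7 genes, each under 7 alternatives and 12 fits without 1 array, 32 kept their side of the threshold throughout, 10 changed it, and 0 of the 798 values reversed a called direction. Of the 18 calls, 15 were never lost. The cause of a change was not tested, apart from the threshold of 0.01, which takes fewer genes by construction. PLA2G4A at 24 h against control (adjusted p 0.0653) passed in a fit of only the 2 groups compared (0.0204) and with array weights (0.000859), and ran from 0.00813 to 0.243 without 1 array. PLA2G4A at 48 h against 24 h did not pass with each array centred on its median (0.0633), in the 2-group fit (0.12) or at 0.01 (0.0411), and ran from 0.0306 to 0.134 without 1 array. PTGS1 at 8 h (0.0113) and HPGD at 8 h (0.0128) did not pass at 0.01, and ran from 0.00476 to 0.0524 and from 0.00495 to 0.0579 without 1 array. HPGD at 48 h passed with array weights (0.00116) and in the 2-group fit (0.031), and ran from 0.0336 to 0.202. Array weights, which counted 48 h replicate 3 least (0.199) and 48 h replicate 2 most (6.52), also let pass PTGER2 at 24 h (0.0491) and 48 h (0.03) against control, and PTGER4 at 24 h against control (0.049), 48 h against 24 h (0.012) and 48 h against 8 h (0.0274).

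The replicate number as a block let PLA2G4A at 24 h against control pass (0.0158) and changed no other call of the 7 genes; the numbers do not pair all groups. The count of the 7 genes called was 2 at 8 h with the threshold of 0.01, 6 at 24 h and 5 at 48 h with array weights, and for 48 h against 24 h 1 when centred, in the 2-group fit and at 0.01, and 1 to 2 without 1 array. Over all genes, array weights gave 6079 calls in place of 3070 at 24 h, 7455 in place of 4649 at 48 h, 5901 in place of 1860 for 48 h against 24 h and 8569 in place of 5464 for 48 h against 8 h. The threshold of 0.01 gave 2920 in place of 4439 at 8 h, 1770 at 24 h, 2252 in place of 3564 for 24 h against 8 h and 819 for 48 h against 24 h. The 2-group fit gave 1022 for 48 h against 24 h, and fits without 1 array 1103 to 2149. Of 42 results picked from the lists by smallest adjusted p, 4 lost their call without 1 array. Of 30 list counts, 15 moved by over 1.5 times, 10 of them with array weights, and the largest move was 6 genes. A filter on low values was not run, since the deposited values hold no level.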

Other observations

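Between the treated times, 8 of the 18 measured genes known to answer PGE2 or cyclic AMP were higher at 24 h than at 8 h and 0 were lower, with a median difference of 0.17 on the log2 scale beside 0.00 for all genes, of which 9.99% were called higher. VEGFA was among them, with a difference of 0.63 (limma adjusted p 6.26e-06). Of the prostanoid synthases, transporters and breakdown enzymes, 0 of 18 were higher and 4 lower at 48 h than at 24 h, beside 4.86% of all genes called lower. The 4 were PTGES3 and the paralogs AKR1C1, AKR1C2 and AKR1C3, whose probes may read one another, so these calls may not be separate. AKR1C2 differed between 48 and 24 h by -1.02 (2.7e-05) and AKR1C3 by -0.82 (0.000147). Comparisons of 48 h with 24 h are not given here without 48 h replicate 3. ALOX5 was higher at 24 h than at 8 h by 0.51 (6.62e-06) and differed by -0.37 between 48 and 24 h (0.000235).

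Among 12 epithelial markers, 3 were higher and 1 lower than control at 24 h and likewise at 48 h, and 1 was higher and 1 lower at 8 h. The shares called were 33.3%, 33.3% and 16.7%, beside 16.7%, 25.3% and 24.2% of all genes at 24, 48 and 8 h. KRT20, a keratin of mature colon cells, had a difference of 0.53 at 24 h (9.47e-06) and 0.51 at 48 h (6.99e-06). LGALS4, a galectin of the gut lining, had -0.64 at 8 h (1.12e-05), -0.28 at 24 h (0.0078) and -0.37 at 48 h (0.000791). Both were chosen after their values were seen. Their part in the values of the 7 prostaglandin genes was not tested.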
